A study of Mus musculus with 8 samples.

Results

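The MAGE genes (melanoma antigen family) were examined in adult mouse testis by RNA sequencing. Members were the genes of the deposited count table whose symbol is Mage followed by 1 letter from a to l and optional digits, with at least 20 counts summed over the 8 libraries. That rule found 22 symbols, of which 19 reached the minimum: 7 Magea, 7 Mageb and 2 Maged genes, and 1 gene each of Magee, Magef and Mageh. All 19 passed the filter on low counts and were among the 21952 genes tested, of 56748 in the table. Of the 3 others, Magea1 had 0 counts in every library, and Magee2 and Magel2 each had 0 counts over the Ssty2 knockout group and 4 over the wild-type group. The coding sequence of Magea1 was 99.3% identical to that of Magea2, so 0 counts does not show that Magea1 was not expressed.

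The libraries were 4 from adult testis of genotype Ssty2-/- (called Ssty2 knockout here) and 4 from wild-type adult testis, with no treatment in either group. Ssty2 is a multicopy spermatid gene of the mouse Y chromosome long arm. The labels give neither the strain, the age beyond adult nor the way the knockout was made. They also do not say that each library is a different animal; p-values therefore reflect only how much these libraries vary, and that variation may be technical. Whole testis mixes germ cells of all stages with Sertoli, Leydig and other somatic cells, and fewer cells of a type cannot be told apart from less RNA per cell. The study asked how gene expression in the Ssty2 knockout testis compares with that in the wild type.

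MAGE proteins share the MAGE homology domain, through which many of them bind a RING-type ubiquitin ligase and steer it towards particular substrates. The Magea and Mageb genes are type I members: they lie mostly on the X chromosome, arose by repeated duplication and are expressed chiefly in male germ cells, and their human counterparts reappear in tumours, which is why they are called cancer-testis genes. The Maged, Magee, Magef, Mageh and Magel genes are type II members, most of which are expressed in many tissues. The X chromosome is silenced during meiosis and largely repressed in spermatids, where X- and Y-linked multicopy genes are known to oppose each other.

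Many of these genes are near-identical copies, and the sequences below show how little separates the copies that the results turn on. They are stretches of 60 coding bases, 5′ to 3′ on the coding strand, with the bases at which the copies differ in capitals, built from GENCODE vM21 transcripts of GRCm38. Mageb5 and Gm14781, an X-linked gene with a predicted-gene symbol, were identical at 1094 of 1098 coding bases (99.6%), and in coding bases 433 to 492 they differed once.
Mageb5: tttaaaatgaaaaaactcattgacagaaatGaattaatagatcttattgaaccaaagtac
Gm14781: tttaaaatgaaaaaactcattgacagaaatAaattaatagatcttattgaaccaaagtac

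Mageb2 and Mageb1 were identical at 1138 of 1140 coding bases (99.8%), and coding bases 68 to 127 hold 1 of the differences.
Mageb2: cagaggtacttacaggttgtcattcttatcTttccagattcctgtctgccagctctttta
Mageb1: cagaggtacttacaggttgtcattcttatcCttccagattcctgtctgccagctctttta

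Mageb3 is a copy of the same kind that lies on chromosome 2. Its coding sequence was 98.5% identical to that of Mageb2 and 98.6% to that of Mageb1, with 3 differing positions in coding bases 164 to 223 of Mageb2 and Mageb1, which are 14 to 73 of Mageb3.
Mageb2: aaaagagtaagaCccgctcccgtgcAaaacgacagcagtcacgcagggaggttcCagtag
Mageb1: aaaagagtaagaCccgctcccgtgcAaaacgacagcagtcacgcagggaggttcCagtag
Mageb3: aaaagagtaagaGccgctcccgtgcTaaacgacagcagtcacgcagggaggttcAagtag

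Magea2, Magea3, Magea5, Magea6 and Magea8 form a cluster of X-linked copies whose coding sequences were 96.2% to 97.9% identical in pairs. Coding bases 882 to 941 hold 9 positions at which at least 1 of them differs.
Magea8: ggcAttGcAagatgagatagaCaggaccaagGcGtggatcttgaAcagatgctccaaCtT
Magea5: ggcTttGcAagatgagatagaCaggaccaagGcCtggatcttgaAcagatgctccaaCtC
Magea2: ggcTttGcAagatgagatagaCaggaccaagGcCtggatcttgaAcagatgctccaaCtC
Magea6: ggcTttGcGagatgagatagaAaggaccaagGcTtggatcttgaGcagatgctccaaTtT
Magea3: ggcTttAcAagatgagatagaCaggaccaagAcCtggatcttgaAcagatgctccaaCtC

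Because a short read can match several of these copies, the share of each gene's 31-base transcript words that also occur in another gene was counted. It was 96.86% for Mageb1, 88.39% for Mageb5, 80.42% for Mageb2, 40.55% for Mageb3 and between 56.43% and 69.24% for the 5 Magea copies. It was 0% for Magea10, Mageb18, Maged1, Magee1 and Mageh1. How the counting treated reads that match several places is not given in the sources used here, so the values of single copies are uncertain, and values for copies summed together are given beside them.

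Library totals were 19621670, 22639737, 22046085 and 18036708 counts in the Ssty2 knockout and 18763650, 21485886, 24415587 and 19945942 counts in the wild type. Ssty2 had 0 counts in all 4 Ssty2 knockout libraries, against 56, 78, 83 and 45 in the wild type. Pearson's r of log2 CPM across genes was 0.9852 to 0.9918 within groups and 0.9586 to 0.9667 between them. Levels below are CPM (counts scaled to library size, with trimmed-mean or TMM factors applied), as mean ± SD with n = 4 libraries per group. A gene was called when edgeR's quasi-likelihood test gave a Benjamini-Hochberg adjusted p under 0.05 over all tested genes. Fold changes are the Ssty2 knockout over the wild type on the log2 scale, with their standard error.

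Of the 19 MAGE genes, 3 rose in the Ssty2 knockout testis (Mageb5, Mageb2 and Mageb1), 11 fell and 5 were not called. The 3 that rose were all Mageb genes, and the 11 that fell were 5 Magea genes, 3 Mageb genes, both Maged genes and Mageh1. Change of some kind was common in this comparison: 26.2% of all tested genes were called higher in the Ssty2 knockout and 27.4% lower. Among the 836 tested X-linked genes, 36.4% were called higher and 41.1% lower, and 17 of the 19 MAGE genes are X-linked. The MAGE genes were called higher in 15.8% of cases and lower in 57.9%, a larger share lower and a smaller share higher than for X-linked genes as a whole. The MAGE shares count near-identical copies as separate genes and include the 2 autosomal members. The median log2 fold change was -0.62 for the MAGE genes, -0.24 for tested X-linked genes and -0.01 for all tested genes.

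**Figure D1:**
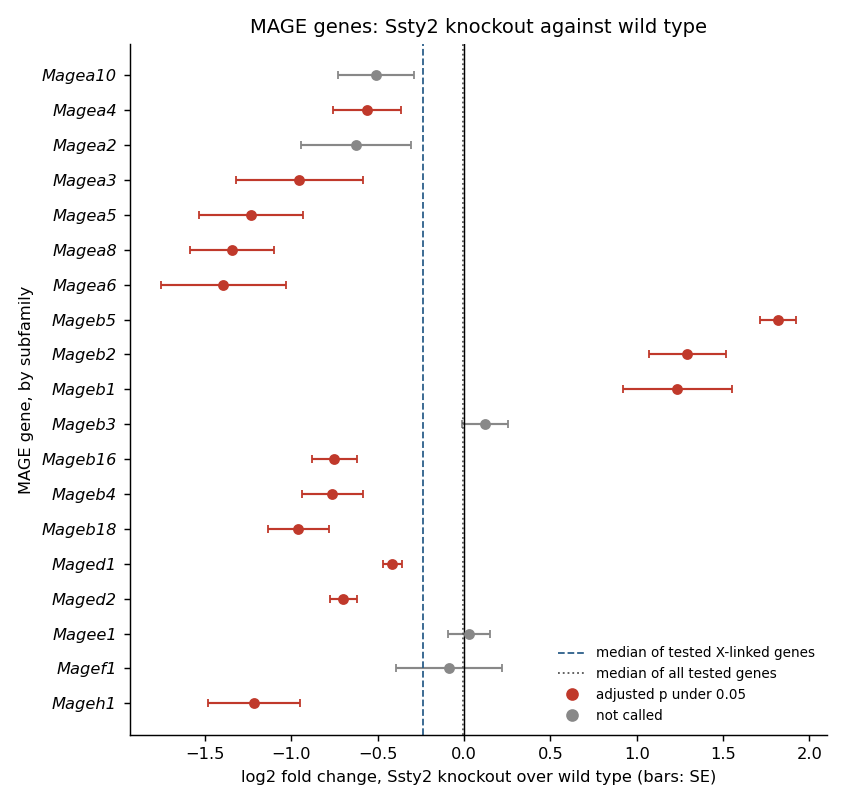
Log2 fold change of each MAGE gene, Ssty2 knockout over wild type, with bars of 1 standard error (n = 4 libraries per group); genes are ordered by subfamily, red points passed an adjusted p of 0.05 and grey points did not. Mageb5, Mageb2 and Mageb1 lie right of 0 at 1.82, 1.29 and 1.23, and 11 red points lie to the left of it, down to Magea6 at -1.39.

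The groups did not overlap for the 3 genes that rose and for 10 of the 11 that fell. Over all tested genes, groups were separate in that way for 22.7% in the higher and 24% in the lower direction. Summed over all 19 genes the level was 280 ± 13.0 CPM in the Ssty2 knockout and 355 ± 11.4 CPM in the wild type, a sum made up mostly of Maged1.

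Scaling mattered for the balance of directions. With library totals in place of TMM, the median of all tested genes moved by -0.14, and the share of calls that were higher was 31.8%, against 48.9% with TMM. Under that scaling 3 MAGE genes were called higher and 12 lower, where 17.5% of all tested genes were called higher and 37.6% lower.

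Genes were ordered by level per kilobase of exon, a scale that allows for length but not for reads shared between copies. The ranks of genes with many shared words, such as Mageb5, Mageb2 and Mageb1, are therefore uncertain. Maged1 was highest in both groups, at 43.1 ± 2.47 CPM per kilobase in the Ssty2 knockout and 57.5 ± 1.76 in the wild type. Mageb5 was the second in the Ssty2 knockout at 19.8 ± 1.56 CPM per kilobase, above Maged2 at 10.1 ± 1.07, and those 2 ranges did not overlap. In the wild type Maged2 was the second at 16.3 ± 1.09 CPM per kilobase and Mageb5 the third at 5.61 ± 0.766, and the range of Mageb5 overlapped that of the next gene, Mageb16, at 4.01 ± 0.479. Mageb3 and Mageb16 followed in the Ssty2 knockout at 3.00 ± 0.191 and 2.38 ± 0.239 CPM per kilobase. The other 14 genes lay between 0.280 and 1.56 CPM per kilobase in the Ssty2 knockout, where each overlapped its neighbour in the order. Outside the first 5 ranks, the wild-type means lay between 0.388 and 2.04 CPM per kilobase.

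Mageb5, a member of the germ-cell Mageb subfamily, had the largest rise of the family. It had 466, 580, 628 and 439 counts in the Ssty2 knockout and 118, 184, 204 and 174 in the wild type. Every Ssty2 knockout library lay above every wild-type library. The level was 26.9 ± 2.12 CPM in the Ssty2 knockout and 7.61 ± 1.04 CPM in the wild type, a 3.52-fold rise (log2 fold change 1.82 ± 0.104, edgeR adjusted p = 1.63e-09). Of the 836 tested X-linked genes, 26 had a larger rise.

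Its near-identical copy Gm14781 had 384, 556, 585 and 455 counts in the Ssty2 knockout libraries and 152, 209, 303 and 208 in the wild-type libraries. Those groups did not overlap either, and Gm14781 rose by 1.37 ± 0.121 on the log2 scale (edgeR adjusted p = 1.95e-07). Summed, Mageb5 and Gm14781 rose by 1.59 ± 0.0987 (edgeR adjusted p = 4.38e-09), so the rise did not depend on how reads were shared out between these 2 genes.

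Mageb2 and Mageb1, near-identical copies of each other, also rose, from far fewer counts. Human MAGEB2 is known to restrain translation of the stress granule protein G3BP1. Mageb2 had 45, 46, 44 and 32 counts in the Ssty2 knockout and 20, 19, 25 and 13 in the wild type (2.13 ± 0.228 and 0.865 ± 0.180 CPM; log2 fold change 1.29 ± 0.222, edgeR adjusted p = 0.00014). Mageb1 had 20, 26, 20 and 16 counts in the Ssty2 knockout and 6, 13, 7 and 13 in the wild type (1.04 ± 0.134 and 0.444 ± 0.179 CPM; log2 fold change 1.23 ± 0.317, edgeR adjusted p = 0.00366). Neither gene's groups overlapped in CPM. Summed, they had 65, 72, 64 and 48 counts in the Ssty2 knockout and 26, 32, 32 and 26 in the wild type, a rise of 1.28 ± 0.177 on the log2 scale (edgeR adjusted p = 1.88e-05). The sum leaves out Mageb3, with which Mageb2 shared 52.22% and Mageb1 55.71% of its words. How reads were divided with Mageb3 therefore stays uncertain.

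Mageb3, the autosomal copy of these genes, was not called. It had 139, 144, 138 and 126 counts in the Ssty2 knockout and 141, 169, 149 and 112 in the wild type, and the groups overlapped (log2 fold change 0.12 ± 0.132, edgeR adjusted p = 0.46). Its exons overlap those of Ctdspl2 on the other strand, and whether the counting used strand is not given in the sources used here, so reads of the pair cannot be told apart.

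The other 3 Mageb genes, all X-linked, fell. Mageb16, a testis-expressed gene, had 79, 113, 95 and 77 counts in the Ssty2 knockout and 141, 208, 180 and 164 in the wild type (4.63 ± 0.464 and 7.81 ± 0.933 CPM; log2 fold change -0.75 ± 0.132, edgeR adjusted p = 0.000174). Mageb4 had 54, 68, 44 and 54 counts in the Ssty2 knockout and 74, 127, 114 and 111 in the wild type (2.83 ± 0.514 and 4.79 ± 0.810 CPM; log2 fold change -0.76 ± 0.176, edgeR adjusted p = 0.0017). Mageb18, whose human counterpart is reported to bind the ligase LNX1, had 26, 41, 46 and 37 counts in the Ssty2 knockout and 66, 95, 100 and 72 in the wild type (1.91 ± 0.363 and 3.73 ± 0.361 CPM; log2 fold change -0.96 ± 0.177, edgeR adjusted p = 0.000261). For each of the 3 genes every Ssty2 knockout library lay below every wild-type library in CPM. Mageb18 shared no 31-base word with another gene, whereas Mageb16 shared 55.57% with Mageb16-ps2, which had 10 counts in all, and Mageb4 shared 53.73% with Mageb10-ps.

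**Figure D2:**
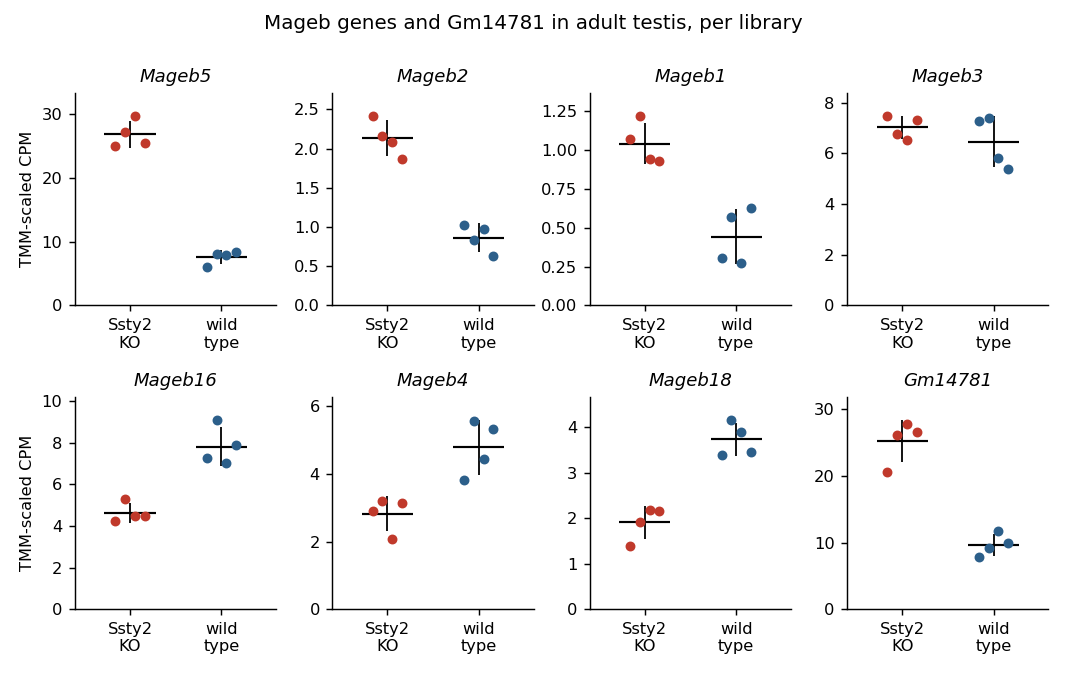
TMM-scaled CPM of the 7 Mageb genes and of Gm14781 in each library (points), with the mean (horizontal line) and SD (vertical line) of the 4 Ssty2 knockout and 4 wild-type libraries; each panel has its own axis from 0. Mageb5, Mageb2, Mageb1 and Gm14781 were higher in all Ssty2 knockout libraries, Mageb16, Mageb4 and Mageb18 were lower in all of them, and Mageb3 overlapped.

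The summed Mageb level was higher in the Ssty2 knockout. Summed over the 7 genes the level was 46.4 ± 1.74 CPM in the Ssty2 knockout and 31.7 ± 2.83 CPM in the wild type, with no overlap. Mageb5 supplied 57.8 ± 2.73% of the Mageb sum in the Ssty2 knockout and 24.0 ± 2.74% in the wild type.

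Mageb2, Mageb5, Mageb1 and Mageb18 lie in that order in a stretch of the X that holds 20 annotated genes, 10 of them tested. The stretch was chosen after its values were seen. Of the 10 tested genes 5 were called higher, 2 lower and 3 were not called. Among all tested X-linked genes 36.4% were called higher and 41.1% lower. The 5 that rose were Mageb2, 1700084M14Rik, Gm14781, Mageb5 and Mageb1. All of them but 1700084M14Rik are the Mageb genes and the copy already given above. 1700084M14Rik was at 120, 150, 121 and 138 CPM in the Ssty2 knockout and 40.9, 40.8, 35.3 and 36.9 CPM in the wild type, a rise of 1.78 ± 0.0788 on the log2 scale (edgeR adjusted p = 9.57e-11). The 2 that fell, Gm4911 (log2 fold change -1.81 ± 0.448, edgeR adjusted p = 0.00284) and Mageb18, lie next to Mageb1 and at the far end of the stretch. Mageb17-ps, Gm5071 and Gm4912 were not called, at log2 fold changes of 0.11, 0.51 and -0.50.

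**Figure D3:**
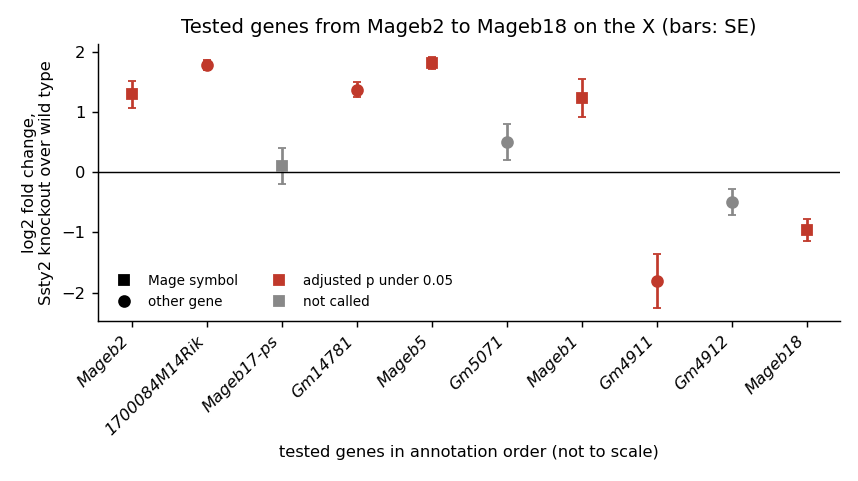
Log2 fold change, Ssty2 knockout over wild type, of the 10 tested genes from Mageb2 to Mageb18 on the X, in annotation order and not to scale, with bars of 1 standard error (n = 4 libraries per group); squares carry a Mage symbol. The 5 genes that rose lie between 1.23 and 1.82, and the 2 that fell, Gm4911 and Mageb18, lie at the right at -1.81 and -0.96.

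The promoters of Mageb5, which rose, and Mageb18, which fell, are shown because the pair lies in 1 stretch of the X and moved in opposite directions. They are the 250 bases before the start of each gene, 5′ to 3′ along its own strand, from RefSeq (GRCm38.p6), with a match to a searched motif in capitals. The Mageb5 window lies at chrX:91782977-91783226 on the minus strand, and the Mageb18 window at chrX:92599573-92599822 on the minus strand.
Mageb5: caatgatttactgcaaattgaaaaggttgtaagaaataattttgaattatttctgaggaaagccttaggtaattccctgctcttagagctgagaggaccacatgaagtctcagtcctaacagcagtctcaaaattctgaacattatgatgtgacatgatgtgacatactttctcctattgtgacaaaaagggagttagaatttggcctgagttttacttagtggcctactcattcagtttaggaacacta
Mageb18: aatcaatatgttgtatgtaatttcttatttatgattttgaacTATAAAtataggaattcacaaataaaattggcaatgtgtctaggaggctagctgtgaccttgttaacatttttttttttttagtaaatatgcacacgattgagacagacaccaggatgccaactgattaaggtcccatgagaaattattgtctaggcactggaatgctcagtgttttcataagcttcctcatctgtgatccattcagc

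Both windows were poor in CpG: Mageb5 held 0 CpG dinucleotides and Mageb18 held 1, where the median over 32851 promoter windows was 6 and the Maged1 window held 14. Motifs were searched on both strands. The TATA box, as TATAAA, occurred in 12.4% of all windows. The short site of the CREM and CREB factors, as TGACG, occurred in 17.8% of them. The core of ETS factor sites, as CGGAAG, occurred in 13.6%. The E-box, as CACGTG, occurred in 6.02%. None of these motifs contains another. Mageb5 had no match to any of the 4, and Mageb18 had 1, a TATAAA that begins 208 bases before the start. A match describes letters only.

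The Magea genes, germ-cell genes whose human counterparts MAGEA3 and MAGEA6 guide the ligase TRIM28 to substrates such as AMPK, had calls in 1 direction. Of 7 genes 5 fell, and Magea10 and Magea2 were not called. Levels were low throughout, with at most 89 counts of any 1 gene in a library. The summed Magea level was 6.01, 6.57, 6.48 and 6.52 CPM in the Ssty2 knockout and 10.1, 14.0, 11.6 and 12.0 CPM in the wild type, so that all Ssty2 knockout libraries lay below all wild-type libraries (6.40 ± 0.259 and 11.9 ± 1.57 CPM).

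Magea8 had 29, 23, 21 and 12 counts in the Ssty2 knockout and 39, 60, 89 and 60 in the wild type (log2 fold change -1.34 ± 0.243, edgeR adjusted p = 0.000228). Magea6 had 8, 5, 11 and 3 counts in the Ssty2 knockout and 18, 28, 19 and 16 in the wild type (log2 fold change -1.39 ± 0.360, edgeR adjusted p = 0.00385). Magea5 had 12, 22, 24 and 7 counts in the Ssty2 knockout and 36, 55, 32 and 48 in the wild type (log2 fold change -1.24 ± 0.300, edgeR adjusted p = 0.00248). These 3 copies of the cluster had no overlap between groups in CPM.

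Magea3, another copy, had 6, 10, 6 and 18 counts in the Ssty2 knockout and 17, 29, 28 and 16 in the wild type (log2 fold change -0.96 ± 0.368, edgeR adjusted p = 0.038). It passed although its groups overlapped: Ssty2 knockout replicate 4 was at 1.05 CPM, above wild-type replicates 1 and 4 at 0.875 and 0.769 CPM. Magea3 was not called by DESeq2 (adjusted p = 0.0845), by which 19.3% of genes were called higher and 20.3% lower, and leaving out any of 5 single libraries also ended its call, with adjusted p between 0.0777 and 0.118. Magea2 had 14, 12, 14 and 9 counts in the Ssty2 knockout and 11, 30, 19 and 26 in the wild type, and was not called (log2 fold change -0.62 ± 0.319, edgeR adjusted p = 0.11). Without wild-type replicate 1, the lowest of its group, Magea2 was called lower (adjusted p = 0.0425).

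With the 5 copies summed, the level was 3.38 ± 0.379 CPM in the Ssty2 knockout and 7.58 ± 1.10 CPM in the wild type, a fall of 1.16 on the log2 scale (SE 0.145, edgeR adjusted p = 7.11e-06). The sum does not depend on how reads were divided among the 5. It leaves out Magea1, which had 0 counts although its coding sequence was 99.3% identical to that of Magea2. Of the words of Magea1, 83.21% also occur in another gene, so the treatment of reads that match it as well stays uncertain.

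Magea4 and Magea10 are the members of the subfamily that can be told from the copies by sequence, with 7.41% and 0% of their words shared. Magea4, whose human counterpart binds the DNA damage ligase RAD18, had 20, 31, 27 and 24 counts in the Ssty2 knockout and 40, 46, 47 and 38 in the wild type (1.30 ± 0.169 and 1.93 ± 0.121 CPM; log2 fold change -0.57 ± 0.197, edgeR adjusted p = 0.0234). Its groups did not overlap in CPM, but it was not called by DESeq2 (adjusted p = 0.086), with no filter on low counts (adjusted p = 0.0673) or without Ssty2 knockout replicate 1 (adjusted p = 0.0701). Magea10 had 23, 37, 34 and 39 counts in the Ssty2 knockout and 36, 71, 64 and 46 in the wild type, and was not called (log2 fold change -0.51 ± 0.220, edgeR adjusted p = 0.0622). It was called lower with library totals (adjusted p = 0.0206), without Ssty2 knockout replicate 4 (0.0265) and without wild-type replicate 1 (0.0312).

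**Figure D4:**
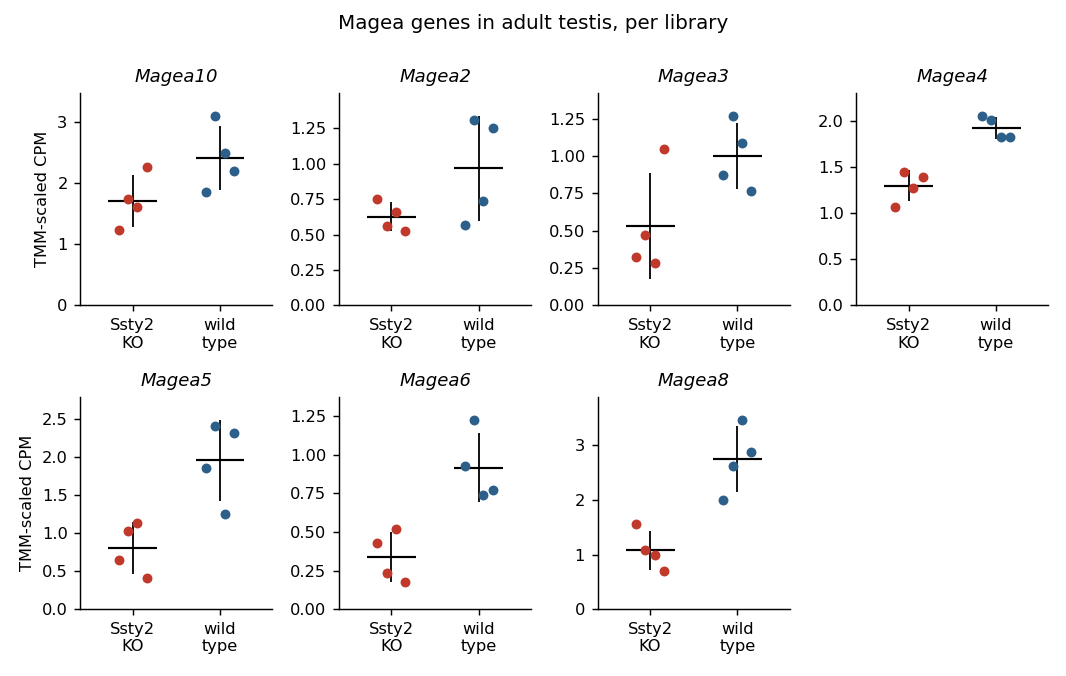
TMM-scaled CPM of the 7 Magea genes in each library (points), with the mean (horizontal line) and SD (vertical line) of the 4 Ssty2 knockout and 4 wild-type libraries; each panel has its own axis from 0. The means of all 7 were lower in the Ssty2 knockout, and the groups overlapped for Magea10, Magea2 and Magea3.

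Both Maged genes fell, from levels that counting limits little. Maged1, also called NRAGE, binds the p75 neurotrophin receptor and promotes cell death. It had 193, 172, 192 and 195 CPM in the Ssty2 knockout and 253, 256, 239 and 252 CPM in the wild type, from at least 3342 counts in every library, and fell by 0.42 ± 0.0540 on the log2 scale (edgeR adjusted p = 1.03e-05). Maged2, which in humans is mutated in transient antenatal Bartter syndrome, had 32.2, 28.6, 32.6 and 37.0 CPM in the Ssty2 knockout and 47.6, 54.8, 54.3 and 54.7 CPM in the wild type, and fell by 0.70 ± 0.0801 (edgeR adjusted p = 2.9e-06). Neither gene's groups overlapped. Maged1 shared no words with another gene and Maged2 shared 2.39%.

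Mageh1, a small type II gene whose protein is reported to bind the p75 neurotrophin receptor as well, had 12, 10, 18 and 12 counts in the Ssty2 knockout and 33, 26, 47 and 32 in the wild type. It fell by 1.22 ± 0.267 on the log2 scale (edgeR adjusted p = 0.00114) with no overlap. Magee1, known in mouse as a partner of alpha-dystrobrevin, was at 5.54 ± 0.240 CPM in the Ssty2 knockout and 5.45 ± 0.372 CPM in the wild type and was not called (log2 fold change 0.03 ± 0.122, edgeR adjusted p = 0.873). Magef1, annotated in this mouse build as a transcribed processed pseudogene on chromosome 16, had 27, 20, 11 and 16 counts in the Ssty2 knockout and 24, 23, 18 and 24 in the wild type and was not called (log2 fold change -0.09 ± 0.308, edgeR adjusted p = 0.826). The groups overlapped for Magee1 and Magef1.

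**Figure D5:**
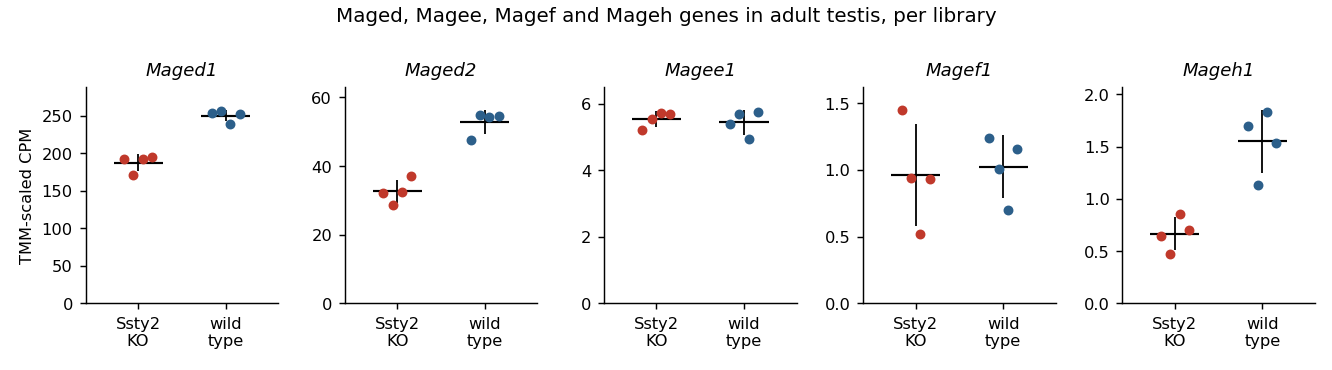
TMM-scaled CPM of the type II genes Maged1, Maged2, Magee1, Magef1 and Mageh1 in each library (points), with the mean (horizontal line) and SD (vertical line) of the 4 Ssty2 knockout and 4 wild-type libraries; each panel has its own axis from 0. Maged1, Maged2 and Mageh1 were lower in all Ssty2 knockout libraries, and Magee1 and Magef1 overlapped.

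The 3 genes with a MAGE homology domain and another kind of name fell. Ndn (necdin), an imprinted gene that restrains cell division, was at 3.65, 2.54, 1.99 and 2.68 CPM in the Ssty2 knockout and 5.97, 5.73, 6.93 and 6.64 CPM in the wild type (log2 fold change -1.23 ± 0.170, edgeR adjusted p = 1.88e-05). Tro (trophinin), a cell adhesion gene that shares transcript words with Maged2, had a log2 fold change of -0.57 ± 0.151 (edgeR adjusted p = 0.00454). Nsmce3, the MAGE subunit of the SMC5/6 DNA repair complex, had the smallest change, -0.30 ± 0.0989 (edgeR adjusted p = 0.0172), and its groups overlapped. Of the X-linked Mageb sequences annotated as pseudogenes, Mageb7-ps, Mageb8-ps and Mageb10-ps fell, with log2 fold changes of -0.68, -1.19 and -0.81, and Mageb17-ps was not called. Mageb10-ps shared 87.33% of its words with Mageb4, which also fell, so the reads of these 2 cannot be fully told apart.

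The partners of MAGE proteins moved in both directions. Of 14 tested ligases known to bind a MAGE protein 5 were called higher and 6 lower, with a median log2 fold change of -0.05. For this list and those below, the shares over all tested genes were 26.2% higher and 27.4% lower. Those with the smallest p were Cul4b, a scaffold of cullin-RING ligases (log2 fold change 0.74 ± 0.0686), Xiap, an inhibitor of caspases (-0.81 ± 0.120), Rbx1, the RING subunit of cullin ligases (-0.39 ± 0.0703), and Pja1, a RING ligase that binds Maged1 (-0.33 ± 0.0665). Cul4b, Xiap and Pja1 are X-linked. Trim28, the ligase of the MAGE-A and MAGE-C proteins, was at 454 ± 11.7 CPM in the Ssty2 knockout and 449 ± 14.8 CPM in the wild type and was not called; it was singled out after its values were seen.

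Of the 9 tested genes of the SMC5/6 complex, 3 were called higher and 4 lower, with a median of -0.09. Eid3, its germ-cell subunit, was at 429 ± 15.7 CPM in the Ssty2 knockout and 362 ± 9.54 CPM in the wild type (log2 fold change 0.25), while Slf2 and Nsmce4a fell, at -0.33 and -0.29, and Smc5 rose, at 0.21. Of the 12 tested genes of the WASH and retromer machinery, which sorts endosomal cargo with MAGEL2, 3 were called higher and 5 lower, with a median of -0.12. Washc5, Vps26b and Washc4 fell, at -0.80, -0.60 and -0.54, and the deubiquitinase gene Usp7 rose, at 0.28. Magel2 itself was at the limit of detection, with 4 counts in all.

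Of the 17 tested genes for reported substrates and effectors of MAGE ligases, 1 was called higher, 7 lower and 9 were not called, with a median of -0.25. G3bp1, the stress granule gene regulated by human MAGEB2, was at 60.4 ± 1.43 CPM in the Ssty2 knockout and 82.1 ± 4.28 CPM in the wild type (log2 fold change -0.44 ± 0.0581, edgeR adjusted p = 1.09e-05). Hif1a, the hypoxia factor, Trp53, the p53 tumour suppressor, and G3bp2, a paralogue of G3bp1, also fell, at -0.69, -0.55 and -0.29. These values are RNA levels, whereas MAGE ligases act on proteins and human MAGEB2 acts on the translation of G3BP1.

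Of 25 tested genes of other X-linked cancer-testis families 8 were called higher, 9 lower and 8 were not called, with a median of -0.05. That split was near the shares of all tested X-linked genes, 36.4% higher and 41.1% lower. The 4 with the smallest p all rose: Tex13a (log2 fold change 1.46), Tex13c1 (1.42), Cypt1 (0.98) and Fthl17a (1.02). Of 16 tested X-linked spermatid genes 14 were called higher and 1 lower, with a median of 1.32, among them Actrt1 (1.95), Cypt3 (1.23), Akap14 (1.63) and Cypt2 (1.29). The log2 fold changes of Mageb5, Mageb2 and Mageb1, 1.82, 1.29 and 1.23, lay in the range of these genes.

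Markers of different germ-cell stages moved in different directions, and their part in the results above was not tested. All 24 tested round spermatid markers were called higher, with a median of 0.53 and a summed level of 18426 to 21054 CPM in the Ssty2 knockout and 11877 to 14806 CPM in the wild type; Actrt1, Izumo1, Gsg1 and Catsper4 had the smallest p. Of 16 tested pachytene markers 8 were called higher and 1 lower, with a median of 0.16 and sums of 8752 to 9355 CPM in the Ssty2 knockout and 7618 to 7899 CPM in the wild type. Of 22 tested spermatogonial markers 4 were called higher and 16 lower, with a median of -0.72, Uchl1, Dmrt1, Etv5 and Ret at -0.78, -0.78, -0.66 and -1.39. Their sums overlapped, at 768 to 803 CPM in the Ssty2 knockout and 741 to 802 CPM in the wild type. Most of the sum was Dmrtb1, named after its values were seen, which rose (572 ± 15.3 CPM in the Ssty2 knockout and 450 ± 17.0 CPM in the wild type; log2 fold change 0.35). Without Dmrtb1 the sums were 213 to 220 CPM in the Ssty2 knockout and 303 to 340 CPM in the wild type. Of 22 tested markers of early spermatocytes 3 were called higher and 10 lower, with a median of -0.20; Dmc1, Rad51ap2 and Stra8 fell, at -0.70, -0.91 and -0.72, and Rec8 rose, at 0.62. Their sums overlapped, at 1956 to 2337 CPM in the Ssty2 knockout and 2115 to 2562 CPM in the wild type.

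Maged1, Maged2 and Ndn are known from many somatic tissues. Markers of Sertoli and Leydig cells were mostly lower, and their part in the results for those genes was not tested. Of 27 tested Sertoli markers 23 were called lower and 4 were not called, with a median of -0.60 and sums of 1993 to 2324 CPM in the Ssty2 knockout and 2932 to 3354 CPM in the wild type; Inha, Aard, Inhbb and Vim had the smallest p, at -0.97, -0.77, -0.83 and -0.62. Of 17 tested Leydig markers 16 were called lower and 1 was not called, with a median of -0.96 and sums of 1455 to 1628 CPM in the Ssty2 knockout and 2871 to 3088 CPM in the wild type; Aldh1a1, Cyp17a1, Ldhb and Lhcgr fell by 1.08, 1.16, 0.75 and 1.56. Maged1 fell less than the median of either list, Maged2 lay between the medians, and Ndn, at -1.23, fell more than both. Of 12 tested peritubular markers 2 were called higher and 7 lower, with overlapping sums of 457 to 505 CPM in the Ssty2 knockout and 446 to 484 CPM in the wild type. Of 15 tested macrophage and leukocyte markers 1 was called higher and 9 lower, with overlapping sums of 472 to 563 CPM in the Ssty2 knockout and 420 to 484 CPM in the wild type. In both lists the most abundant gene rose, Actg2 at 0.47 and Aif1 at 0.52. Without it the peritubular sums were 208 to 237 CPM in the Ssty2 knockout and 268 to 307 CPM in the wild type, and the macrophage and leukocyte sums were 117 to 154 CPM in the Ssty2 knockout and 180 to 214 CPM in the wild type. Of 12 tested endothelial markers 3 were called lower, with overlapping sums of 44.3 to 54.0 CPM in the Ssty2 knockout and 53.1 to 61.3 CPM in the wild type. Of 3 tested epididymal markers 2 were called lower, with sums of 8.16 to 10.9 CPM in the Ssty2 knockout and 11.6 to 13.6 CPM in the wild type. The 3 tested erythroid markers had edgeR adjusted p between 0.682 and 0.983, with overlapping sums of 25.3 to 38.0 CPM in the Ssty2 knockout and 28.4 to 33.3 CPM in the wild type. No marker in these lists was at 0 in all 8 libraries, but some were near the floor. The spermatogonial markers Nanos2 and Neurog3 had 7 and 33 counts over the 8 libraries and were not tested.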

How the data were processed

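Libraries of total testis RNA were prepared with a TruSeq kit, per the labels' protocols. The authors deposited raw, unnormalized read counts by Ensembl gene, with a column for each library. The submitters' processing notes name the build mm39 and the tools FastQC, Trimmomatic, STAR, featureCounts and DESeq2. Versions, annotation, strand setting and the handling of reads matching several places were not given in the sources used here.

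Symbols, gene types, chromosomes and gene order came from GENCODE vM21 of GRCm38 and matched 52073 of 56748 IDs (4675 had no symbol). No coordinates of that build were joined to the counts. Promoters came from RefSeq (GRCm38.p6), which had no entry used here for Mageb1 or Mageb2. Transcript words of 31 bases were compared on both strands, and coding sequences of similar length were aligned end to end with Biopython 1.88.

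Counts were tested over the whole table with edgeR 4.0.16 in R 4.3.3 (filterByExpr, minimum count 10 and minimum total 15; TMM; quasi-likelihood test on genotype alone; Benjamini-Hochberg adjustment over 21952 genes). The procedure was tested on simulated data. TMM factors were 0.942 to 0.960 in the Ssty2 knockout and 1.04 to 1.07 in the wild type. No pair within a group agreed within sampling noise (chi-square over its degrees of freedom 4.19 to 8.52), and all 8 libraries were kept apart. The standard error is the log2 fold change divided by the square root of its F statistic. Alternatives were DESeq2 1.42.0, other scaling and filters, other membership, a block on replicate number, copies summed, and each library left out.

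The members and gene lists were chosen with earlier results of these data known. Genes named are every member, related MAGE genes, the up to 4 smallest-p genes of each list, and Ssty2 to check the labels; Gm14781, the X stretch, Trim28 and Dmrtb1 were added after their values were seen.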

Additional observations from a re-analysis of the deposited data

Results flagged for a closer look

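Among 44 groups of 4 libraries examined (each MAGE gene and the summed Magea, Mageb and Maged levels, in each genotype), 3 had 1 library far from the other 3, where chance alone gives about 1 group in 20. Maged1 was at 171.598 CPM in Ssty2 knockout replicate 2, below the 191.865 to 194.548 CPM of the other Ssty2 knockout libraries, and without that library Maged1 had a log2 fold change of -0.37. Maged2 was at 47.5576 CPM in wild-type replicate 1, below the 54.2888 to 54.8063 CPM of the other wild-type libraries, and without it Maged2 had a log2 fold change of -0.75. The summed Magea level was 6.01249 CPM in Ssty2 knockout replicate 1, below the 6.48385 to 6.57283 CPM of the other Ssty2 knockout libraries.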

How the results depend on the processing

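The count of MAGE genes called higher was 3 with DESeq2, RLE size factors, library totals, no filter on low counts, the replicate block, a minimum of 100 counts and every library left out (3 to 3). It was 2 with the stricter filter, which does not test Mageb1. It was also 2 with near-identical copies summed, an alternative added after seeing the data that leaves 14 units in place of 19 genes. The count called lower was 11 with RLE size factors, 12 with library totals, 10 with no filter, 9 with the stricter filter and 9 with DESeq2. It was 8 of the 14 units with copies summed, a fit for which the shares over all tested genes were not counted. Over libraries left out it ranged from 9 to 13, where 22.7% to 24.7% of all tested genes were called higher and 24.3% to 26.7% lower. The shares of all tested genes called higher and lower were 26.7% and 26.7% with RLE size factors, 13.9% and 15.1% with no filter and 27.4% and 30.9% with the stricter filter. Restricted to the 5 genes with under 1% of their words shared, 0 were called higher and 3 lower (Mageb18, Maged1 and Mageh1), so every rise rests on genes with near-identical copies. With Ndn, Nsmce3, Tro and the suffixed Mage symbols added to the 19 genes, 3 of that larger set were called higher and 17 lower. In the same fit 26.2% of all tested genes were called higher and 27.4% lower.

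Direction and side of the threshold were kept in 244 of 262 pairs of gene and alternative, and for 12 of 19 genes under all alternatives run. Signs turned only for genes that were not called: Mageb3 was at -0.0224 and Magee1 at -0.12 with library totals; over libraries left out Magee1 ranged from -0.024 to 0.0568 (below 0 without wild-type replicate 3) and Magef1 from -0.351 to 0.128 (above 0 without Ssty2 knockout replicate 3 or wild-type replicate 1). Calls of Magea10, Magea2, Magea3 and Magea4 changed as the text gives. The causes were not tested.

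The labels do not say that replicate numbers pair the libraries. Deviations from the group mean of libraries with the same number correlated at 0.0798, 0.0225, 0.0605 and 0.00201. For libraries with different numbers the correlations ran from -0.0657 to 0.0406, so all were weak and pairing was left undecided. With the replicate block 3 MAGE genes were called higher and 11 lower, where 26.9% of all tested genes were called higher and 28.3% lower.

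Counts of at most 30 per library limit Magea2, Magea3, Magea6, Mageb1 and Magef1, where 3 counts were worth up to 0.175 CPM, and the smallest two-sided exact permutation p for 4 against 4 libraries is 0.0286.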
